A study of Mus musculus with 6 samples.

Results

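Receptors for the colony-stimulating factors and related growth factors were examined as 9 genes: Csf1r, Csf2ra, Csf2rb, Csf2rb2, Csf3r, Flt3, Kit, Il3ra and Il6ra. They were chosen by name from 23284 gene names, and all 9 were found. RNA-seq was done on 6 libraries of cells that carried EGFP and were sorted out of the calvaria (the bones of the skull roof). The animals were CX3CR1-EGFP mice, in which a green fluorescent protein reports use of the fractalkine receptor gene. All animals had received lipopolysaccharide (LPS), a bacterial cell wall component, at the calvarial periosteum, together with 10 mg/kg CTLA4-Ig in 3 libraries or 10 mg/kg whole human IgG (control IgG) in 3 libraries, and cells were sorted 5 days later. CTLA4-Ig, the drug abatacept, is a fusion protein that occupies the costimulatory ligands CD80 and CD86. The reporter is carried by monocytes and osteoclast precursors among other cells, no group without LPS was analysed here, and the titles call the libraries biological replicates without saying how many animals stand behind each or how old they were. The p-values measure the spread between these libraries.

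Colony-stimulating factors act on myeloid cells through surface receptors that either carry their own tyrosine kinase or borrow one. Csf1r (for M-CSF and IL-34), Kit (for stem cell factor) and Flt3 (for FLT3 ligand) are receptor tyrosine kinases. The GM-CSF, IL-3, G-CSF and IL-6 receptors lack a kinase and signal through JAK kinases and STAT factors. In bone, M-CSF signalling through Csf1r is required for osteoclast precursors to survive and to form osteoclasts, the cells that resorb bone. Csf3r drives the production of neutrophils, and Kit and Flt3 mark early progenitors, with Kit kept in mast cells and Flt3 in dendritic cells.

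A pair of near-identical receptor genes lies side by side on chromosome 15 (GRCm38). Csf2rb (78325800 to 78351001) encodes the common β chain shared by the receptors for GM-CSF, IL-3 and IL-5, and Csf2rb2 (78282507 to 78305721) a second β chain that in mice serves IL-3. Their coding sequences, of 2688 and 2634 bases in GENCODE M21, were 95.2% identical over aligned bases, with a longest identical run of 242 bases, and 26.0% of the 50-base stretches of Csf2rb and 26.6% of those of Csf2rb2 occurred unchanged in the other gene. A sequencing fragment that lies wholly within identical bases cannot be assigned to either gene by sequence, so the split between their values is uncertain. How many fragments did so was not measured. Fragments can be longer than these stretches and reach a difference, and only coding bases were compared. The stretch of 120 coding bases with the most differences (18, in capitals) shows where the genes can be told apart, at coding bases 298 to 417 of Csf2rb and 301 to 420 of Csf2rb2:
Csf2rb: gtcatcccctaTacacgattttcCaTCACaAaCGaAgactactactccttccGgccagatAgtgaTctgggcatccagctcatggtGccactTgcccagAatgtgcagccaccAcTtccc
Csf2rb2: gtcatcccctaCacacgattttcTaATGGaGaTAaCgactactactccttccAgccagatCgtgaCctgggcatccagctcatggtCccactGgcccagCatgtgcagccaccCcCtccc
By contrast, the stretch from coding base 2095 to 2214 had 0 differences, and the same letters stand in both genes:
Csf2rb and Csf2rb2: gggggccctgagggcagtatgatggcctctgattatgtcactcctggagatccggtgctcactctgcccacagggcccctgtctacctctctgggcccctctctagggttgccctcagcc

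The 9 receptor genes were all transcribed in every library, at levels that spanned an order of magnitude. Levels are FPKM as deposited, that is, fragments scaled to transcript length and to library depth. Csf2ra, the ligand-specific α chain of the GM-CSF receptor (chromosome 19, 61217191 to 61228461), and Csf1r (chromosome 18, 61105572 to 61131139) were the highest, with means over the 6 libraries of 162 and 159.7 FPKM, above 95.1% and 95.0% of the 10865 genes that reached a mean of 1 FPKM and were tested. Csf3r, the G-CSF receptor (chromosome 4, 126023441 to 126044975), followed at 88.7 FPKM, Csf2rb at 76.4 and Il6ra, the ligand-binding chain of the IL-6 receptor (chromosome 3, 89869324 to 89913196), at 71.0 FPKM. Il3ra, the α chain of the IL-3 receptor (chromosome 14, 14345912 to 14355493), had a mean of 28.6 FPKM, Flt3 (chromosome 5, 147330741 to 147400489) 23.8, Csf2rb2 19 and Kit (chromosome 5, 75574987 to 75656722) 10.4 FPKM. At 3 steps in this order the ranges did not overlap across the libraries, namely Csf1r over Csf3r, Il6ra over Il3ra and Csf2rb2 over Kit. Csf2ra and Csf1r exchanged places, with Csf2ra above Csf1r in 3 of 6 libraries, and Csf2rb and Il6ra likewise in 3 of 6. The α chain of the GM-CSF receptor stood above the common β chain in each library, at 2.44, 2.01 and 2.41 times its FPKM with CTLA4-Ig and 1.61, 2.26 and 2.38 times with control IgG.

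**Figure D1:**
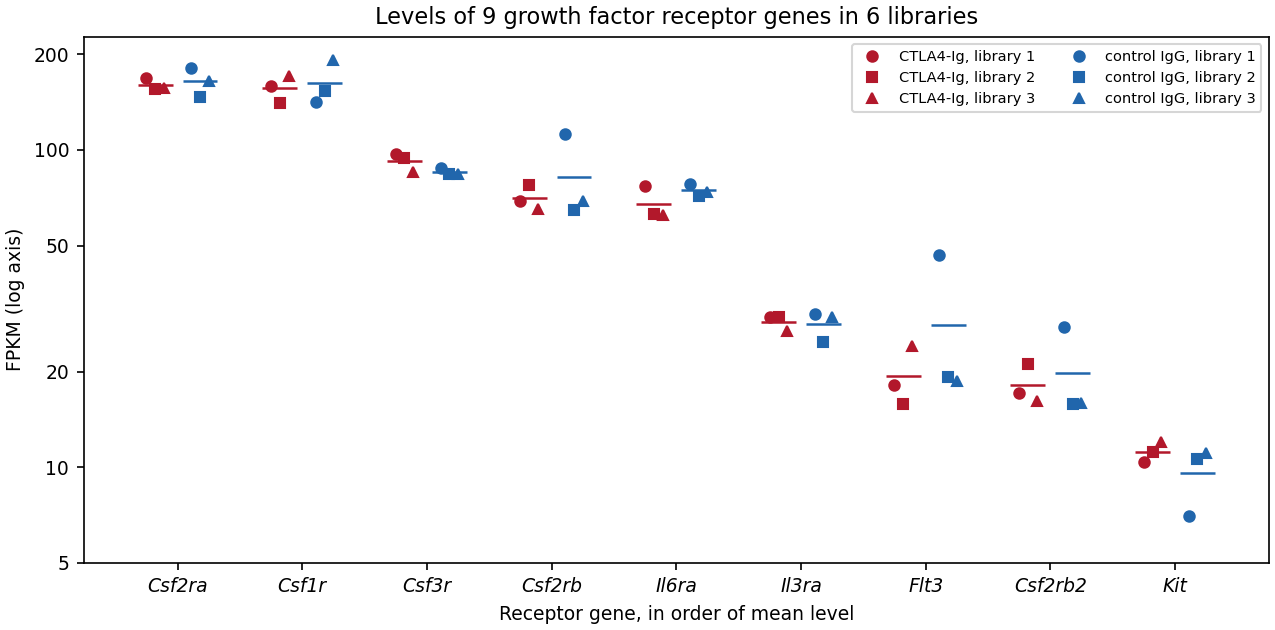
FPKM (log axis) of the 9 receptor genes in order of mean level; points are single libraries, marked by group and library number, and bars are group means (n = 3). Control IgG library 1 stands above the other controls for Csf2rb, Flt3 and Csf2rb2 and below them for Kit, and the groups overlap for every gene.

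The libraries were similar in depth, and 1 of them stood apart in composition. Judged by the steps between low FPKM values, CTLA4-Ig libraries held 9950000, 9370000 and 11440000 fragments and control IgG libraries 9490000, 10310000 and 9890000 fragments, as estimates. Taking the longest annotated transcript of each receptor, that corresponds to roughly 336 (Kit) to 8791 (Csf1r) fragments for a receptor in a library. Control IgG library 1 was the highest or the lowest of the 6 in 49.4% of the genes tested, where the other libraries were so in 23.9 to 37.5%. Neutrophil markers (18 of 19 listed were in the files, led by S100a8) summed to 176550, 243439 and 214916 FPKM with CTLA4-Ig, above each control library, at 139104, 156414 and 137323 FPKM. A large part of each sum was S100a8 alone, at 68260, 95526 and 88315 FPKM with CTLA4-Ig and 59510, 62244 and 54770.5 FPKM with control IgG. Cx3cr1, the reporter's own gene, was present in all libraries, at 24.1, 16.6 and 26.5 FPKM with CTLA4-Ig, against 12.3, 23.8 and 32.5 with control IgG. In such bulk libraries fewer cells of a type and less RNA per cell cannot be told apart.

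Setting CTLA4-Ig against control IgG asks how transcripts of these cells differ when CD80 and CD86 are occupied. No receptor gene passed the test. Limma, on log2(FPKM + 1) with Benjamini-Hochberg adjustment over all 10865 genes, called 0 of the 9 receptors and 0 genes in all (0%), and the smallest adjusted p among the receptors was 0.870, for Csf3r. Without adjustment, limma gave p under 0.05 for 0 receptors, against 659 genes in all (6.07%), of which 4.09% were higher and 1.98% lower with CTLA4-Ig. The libraries of the groups overlapped for all 9 receptors, while they did not overlap in 1324 of the 10865 genes (12.2%), with 6.5% higher and 5.69% lower with CTLA4-Ig. The median log2 fold change was -0.043 over the receptors and -0.006 over all genes tested, with 3 receptors positive and 6 negative. Fold changes on this scale are understated for low genes.

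Csf1r, the growth receptor of the osteoclast lineage, was high and similar in both groups. It stood at 159.4, 140.4 and 170.8 FPKM with CTLA4-Ig and 141.8, 152.9 and 192.7 FPKM with control IgG. The highest and the second lowest value were both control libraries. Its log2 fold change was -0.04 ± 0.13 (SE, n = 3 each), with a 95% interval of -0.35 to 0.26 (limma, adjusted p = 0.978), and it was 0.03 without CTLA4-Ig library 2, 0.09 without control IgG library 3 and -0.13 without control IgG library 1. Monocyte and macrophage markers (18 of 18 in the files, none at 0, led by Lyz2) summed to 23266, 23795 and 22582 FPKM with CTLA4-Ig and 18125, 23478 and 23134 FPKM with control IgG. Lyz2 made up 82.8%, 84.8% and 82.9% of that total in CTLA4-Ig libraries, against 76.0%, 82.5% and 82.7% in control IgG libraries. Without Lyz2 the sums were 3994, 3617 and 3855 FPKM with CTLA4-Ig and 4342, 4101 and 3996 FPKM with control IgG. The CTLA4-Ig sums all lay below the controls, but the nearest pair, at 3993.9 and 3995.9 FPKM, was almost equal. Of the 17 monocyte and macrophage markers tested, 7 had a positive and 10 a negative log2 fold change (median -0.015), and 1, Ms4a6c at -0.35, had groups that did not overlap (limma, adjusted p = 0.720). Over all genes tested the groups did not overlap in 12.2%, with 5.69% lower with CTLA4-Ig. The part of these markers in the Csf1r values was not tested.

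Csf3r had the narrowest spread of the 9 receptors. It stood at 97.1, 94.1 and 85.5 FPKM with CTLA4-Ig and 87.7, 84.0 and 83.7 FPKM with control IgG. CTLA4-Ig libraries 1 and 2 lay above all controls, and CTLA4-Ig library 3 lay between control libraries 1 and 2. The log2 fold change was 0.11 ± 0.06 (SE, n = 3 each), with a 95% interval of -0.04 to 0.27 (limma, adjusted p = 0.870), and the fold change was 0.17 without CTLA4-Ig library 3. Neutrophil markers, whose summed levels are given above, had 14 of 18 members with a positive log2 fold change and a median of 0.518, and limma without adjustment gave 11 of the 18 p under 0.05, all higher with CTLA4-Ig, where 4.09% of all genes were so, while 0 passed once adjusted over all genes; their part in the Csf3r values was not tested. Within each library the ratio of Csf3r to Csf1r was 0.609, 0.671 and 0.501 with CTLA4-Ig, against 0.619, 0.549 and 0.434 with control IgG. These ratios overlapped, and on the log2 scale they differed by 0.16 between groups (two-sided exact permutation p = 0.6, n = 3 each, where 3 against 3 cannot go below 0.1).

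The promoter of Csf3r is shown because this gene varied least among the receptors with a promoter entry (RefSeq, GRCm38.p6, chr4:126024409-126024708, plus strand). The transcript start used by that table, at base 126024659, lies 1218 bases inside the RefSeq gene span given above. Capitals mark the match to GAGGAA, the core bound by PU.1-type ETS factors, which begins 86 bases before that transcript start:
Csf3r: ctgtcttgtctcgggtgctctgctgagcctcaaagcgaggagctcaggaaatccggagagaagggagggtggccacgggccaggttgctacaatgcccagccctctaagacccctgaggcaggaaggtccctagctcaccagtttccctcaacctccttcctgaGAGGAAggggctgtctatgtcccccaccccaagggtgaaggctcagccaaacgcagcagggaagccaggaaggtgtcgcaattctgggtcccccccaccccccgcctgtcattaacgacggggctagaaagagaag
On either strand, GAGGAA was found in 5 of the 7 receptor promoters with an entry (Csf2ra, Csf2rb2, Csf3r, Kit and Il6ra) and in 28.3% of 27025 promoters, TTCNNNGAA (a STAT motif) in Csf2rb2 and 8.47% of promoters, and TTGCNNAA (a C/EBP motif) in Il3ra and 10.8%. The table's start also lay inside the gene span for Il3ra, by 583 bases, and for Csf2ra, by 43 bases. Such matches describe the letters of this window and do not show that a factor binds there.

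The chains of the GM-CSF and IL-3 receptors overlapped between groups, and the β chains were highest in 1 control library. Csf2ra stood at 168.7, 155.6 and 156.4 FPKM with CTLA4-Ig and 181.7, 146.8 and 164.6 FPKM with control IgG, a log2 fold change of -0.03 ± 0.09 (SE, n = 3 each; limma, adjusted p = 0.978). Csf2rb stood at 69.2, 77.3 and 65.0 FPKM with CTLA4-Ig and 112.5, 64.9 and 69.2 FPKM with control IgG. Control IgG library 1 was 1.68 times the mean of the other controls, which lay close to the CTLA4-Ig libraries. The log2 fold change of Csf2rb was -0.18 ± 0.20 (SE, n = 3 each; limma, adjusted p = 0.926), and 0.07 ± 0.09 without control IgG library 1. Csf2rb2 followed the same pattern, at 17.2, 21.1 and 16.2 FPKM with CTLA4-Ig and 27.7, 15.8 and 15.9 FPKM with control IgG. Here control IgG library 1 was 1.75 times the mean of the other controls, and the log2 fold change of -0.08 ± 0.22 (SE, n = 3 each; limma, adjusted p = 0.978) became 0.18 ± 0.11 without it. Without that library the groups no longer overlapped for Csf2rb2 and Csf3r, both higher with CTLA4-Ig, that is 2 of 9 receptors (22.2%) against 26.2% of all genes tested in the same 5 libraries. Il3ra stood at 29.8, 29.8 and 26.8 FPKM with CTLA4-Ig and 30.4, 24.9 and 29.7 FPKM with control IgG, a log2 fold change of 0.03 ± 0.09 (SE, n = 3 each; limma, adjusted p = 0.983).

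The balance of the β chains was also compared within libraries. Their ratio within a library was 0.249, 0.273 and 0.250 with CTLA4-Ig, against 0.246, 0.243 and 0.229 with control IgG. All 3 CTLA4-Ig ratios lay above all 3 control ratios, with the nearest pair close together. The difference was 0.10 on the log2 scale (two-sided exact permutation p = 0.1, n = 3 each, the smallest p that 3 against 3 can give). This ratio rests on how the counting assigned fragments between the near-identical sequences shown above. The Csf2rb2 promoter (RefSeq, GRCm38.p6, chr15:78305672-78305971, minus strand) held the most kinds of the 3 motifs searched, and capitals mark its 2 matches to GAGGAA, both as the reverse complement TTCCTC, and the match to TTCNNNGAA, which begins 15 bases before the annotated start:
Csf2rb2: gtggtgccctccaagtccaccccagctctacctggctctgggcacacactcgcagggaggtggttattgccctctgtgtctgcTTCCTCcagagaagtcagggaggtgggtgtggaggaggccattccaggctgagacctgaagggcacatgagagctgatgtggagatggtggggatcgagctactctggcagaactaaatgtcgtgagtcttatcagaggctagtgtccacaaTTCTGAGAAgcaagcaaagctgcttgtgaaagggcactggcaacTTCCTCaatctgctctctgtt

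The progenitor receptors Flt3 and Kit departed in opposite directions in 1 control library. Flt3 stood at 18.2, 15.8 and 24.2 FPKM with CTLA4-Ig and 46.6, 19.2 and 18.7 FPKM with control IgG. Control IgG library 1 was 2.46 times the mean of the other controls and 1.92 times the highest of the other 5 libraries, while the other controls lay inside the CTLA4-Ig range. Flt3 had the widest spread of the 9 receptors, with a standard deviation of 0.544 over the 6 log2 values, above that of 97.7% of the genes tested. Its log2 fold change was -0.41 ± 0.35 (SE, n = 3 each), with a 95% interval of -1.24 to 0.43 (limma, adjusted p = 0.904), and 0.01 ± 0.17 without control IgG library 1. Dendritic cell markers (10 of 10 in the files, none at 0, led by Bst2) summed to 282.2, 227.1 and 249.1 FPKM with CTLA4-Ig and 121.8, 277.3 and 285.1 FPKM with control IgG. The library with the highest Flt3 thus had the lowest sum of these markers, and their part in the Flt3 values was not tested. All 8 dendritic cell markers tested were lowest in control IgG library 1, against 24.5% of all genes tested. A lowest sum was not particular to this list. The same library was lowest for progenitor, mast cell and basophil, eosinophil, and stromal and bone markers. For monocyte and macrophage markers it was lowest with Lyz2 included and highest without Lyz2, at 4342 FPKM. Of 8 dendritic cell markers tested, 7 had positive log2 fold changes (median 0.16), and none had groups that did not overlap, where 12.2% of all genes did. Control IgG library 1, lowest for all 8, lowered the control mean of each. The sums of control IgG libraries 2 and 3 lay within and above the CTLA4-Ig range.

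Kit stood at 10.4, 11.2 and 12.0 FPKM with CTLA4-Ig and 7.02, 10.6 and 11.1 FPKM with control IgG. Control IgG library 1 was at 0.65 of the mean of the other controls, and every other library lay between 10.4 and 12.0 FPKM. The log2 fold change was 0.23 ± 0.16 (SE, n = 3 each; limma, adjusted p = 0.890) with all libraries and 0.05 ± 0.08 without control IgG library 1. Flt3 stood at 1.74, 1.42 and 2.02 times the FPKM of Kit with CTLA4-Ig and at 6.64, 1.82 and 1.69 times with control IgG. Markers of mast cells, which keep Kit, and of basophils (10 of 10 in the files, with Tpsab1 at 0 in some libraries, led by Prss34), summed to 784, 1056 and 959.5 FPKM with CTLA4-Ig and 569.7, 1010.4 and 824.2 FPKM with control IgG. Progenitor markers (10 of 10 in the files, among them Slamf1, at 0 in some libraries, led by Myb) summed to 74.9, 77.7 and 103.6 FPKM with CTLA4-Ig and 63.4, 85.3 and 87.0 FPKM with control IgG. Of the markers tested, 6 of 8 for mast cells and basophils (median log2 fold change 0.269) and 6 of 7 for progenitors (median 0.14) were positive. Both sums were lowest in control IgG library 1, as Kit was, and so were those of dendritic cell, eosinophil, and stromal and bone markers. Prss34 alone stood at 288.1 FPKM in that library, and the sum joins 2 cell types, so it does not show mast cells alone. Of the markers tested, 5 of 8 for mast cells and basophils (62.5%) and 4 of 7 for progenitors (57.1%) were lowest there, against 24.5% of all genes. The part of these markers in the Kit values was not tested.

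**Figure D2:**
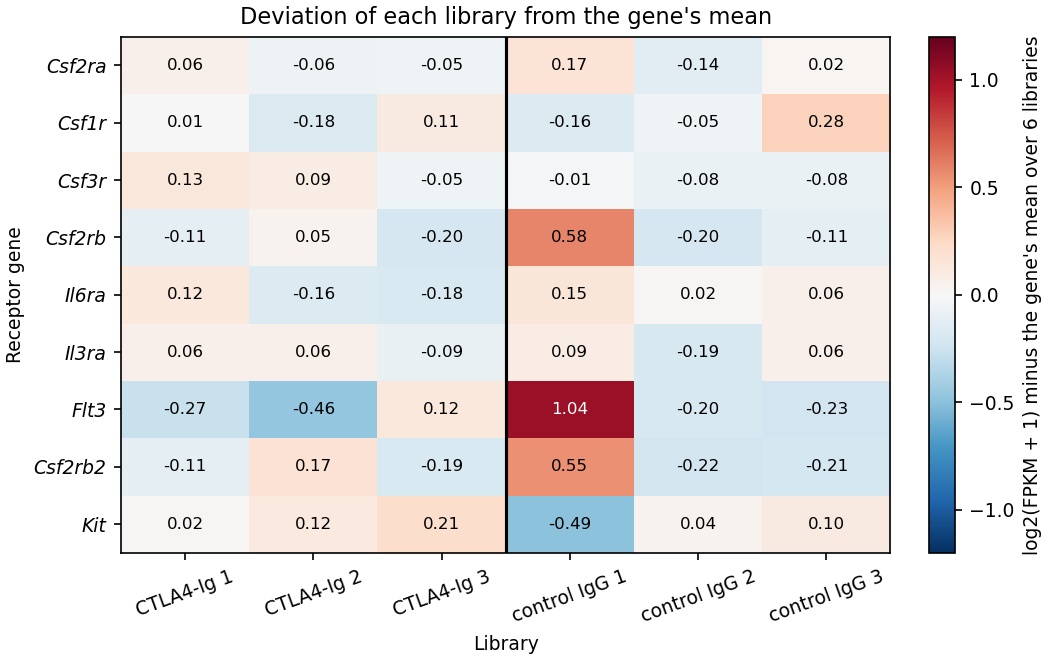
Difference of each library from the gene's mean over the 6 libraries, in log2(FPKM + 1), for the 9 receptors (rows, in order of mean level); red is above and blue below the mean, and the black line separates the groups. The column of control IgG library 1 holds the highest value of the row for 6 of the 9 receptors and the lowest for Kit.

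Across all 9 receptors, control IgG library 1 had the highest value of the 6 libraries for Csf2ra, Csf2rb, Csf2rb2, Flt3, Il3ra and Il6ra, and the lowest for Kit. That is 66.7% highest and 11.1% lowest, where over all genes tested the same library was highest in 24.9% and lowest in 24.5%.

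Both chains of the IL-6 receptor had lower means with CTLA4-Ig, and neither passed the test. Il6ra stood at 77.2, 63.0 and 62.2 FPKM with CTLA4-Ig and 78.4, 71.5 and 73.7 FPKM with control IgG. CTLA4-Ig libraries 2 and 3 lay below all controls, and library 1 lay among them. The log2 fold change was -0.15 ± 0.09 (SE, n = 3 each), with a 95% interval of -0.37 to 0.08 (limma, adjusted p = 0.890). It was -0.25 without CTLA4-Ig library 1 and -0.09 without CTLA4-Ig library 3. Il6st, which encodes the signalling chain gp130 that IL-6 shares with related cytokines, stood at 30.2, 26.5 and 24.3 FPKM with CTLA4-Ig and 39.6, 31.3 and 31.5 FPKM with control IgG. All CTLA4-Ig libraries lay below all controls, as in 5.69% of the genes tested, and the log2 fold change was -0.32 ± 0.12 (SE, n = 3 each; limma, unadjusted p = 0.0295, adjusted p = 0.751), or -0.22 ± 0.10 without control IgG library 1.

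**Figure D3:**
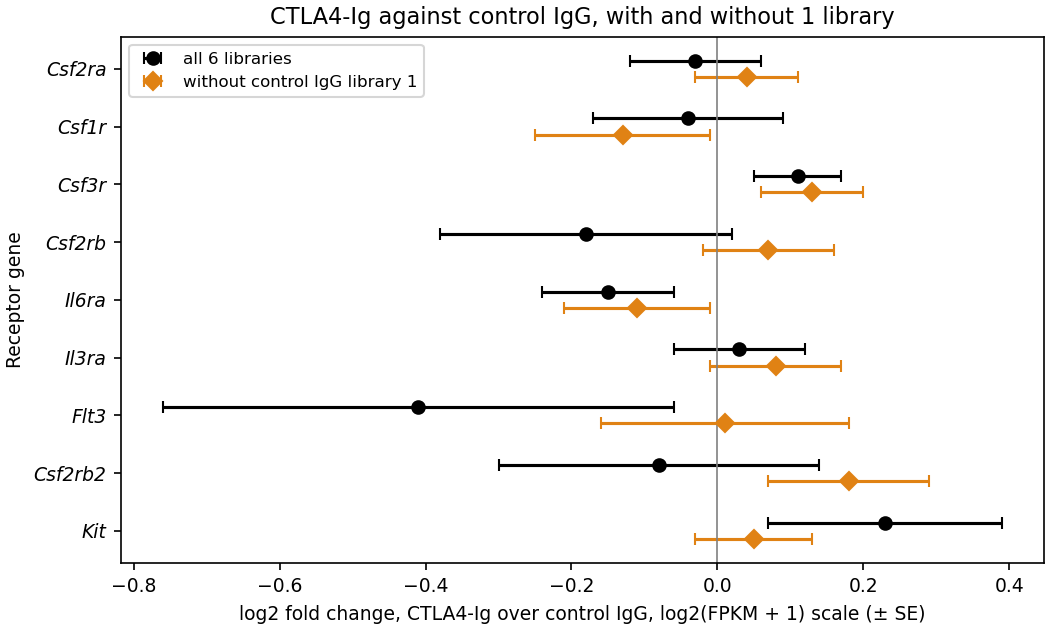
Log2 fold change of CTLA4-Ig over control IgG (± SE from limma) for the 9 receptors, with all 6 libraries (black circles) and without control IgG library 1 (orange diamonds). Without that library Flt3 lies at 0.01 in place of -0.41, and Csf2ra, Csf2rb and Csf2rb2 lie on the other side of 0.

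Few ligands of these receptors were transcribed by the sorted cells themselves. Of 9 ligand genes, 3 had a mean of at least 1 FPKM: Flt3l, Csf1 (M-CSF) and Il6. Flt3l stood at 9.13, 6.62 and 9.04 FPKM with CTLA4-Ig and 8.11, 8.25 and 9.41 FPKM with control IgG. Csf1 stood at 3.17, 4.28 and 4.10 FPKM with CTLA4-Ig and 4.45, 2.74 and 2.66 FPKM with control IgG, and Il6 at 1.14, 2.66 and 2.18 FPKM with CTLA4-Ig and 1.19, 1.54 and 0.917 FPKM with control IgG. The groups overlapped for each, with log2 fold changes of -0.06 ± 0.13 for Flt3l, 0.20 ± 0.18 for Csf1 and 0.41 ± 0.23 for Il6 (SE, n = 3 each; limma, adjusted p = 0.969, 0.909 and 0.869). Without control IgG library 1, in which Csf1 was highest, the fold change of Csf1 was 0.38 ± 0.13 (limma, adjusted p = 0.589), while it was 0.13 without CTLA4-Ig library 2, 0.11 without control IgG library 2 and 0.10 without control IgG library 3. That of Il6 was 0.63 without CTLA4-Ig library 1, 0.24 without CTLA4-Ig library 2, and 0.62 with a pseudocount of 0.1. Kitl, the stem cell factor gene, lay between 0.0369 and 0.0769 FPKM in all libraries. Il34 was listed at 0 with CTLA4-Ig and at 0.139, 0 and 0.0666 FPKM with control IgG, and Csf2 (GM-CSF) was at 0.121 FPKM in CTLA4-Ig library 1, 0.122 FPKM in control IgG library 3 and listed at 0 elsewhere. Csf3 (G-CSF), Il3 and Il5 were listed at 0 in every library. At this depth levels under about 0.1 FPKM rest on a few fragments.

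Signalling genes downstream of the receptors varied little with the group, and none passed in limma over all genes. Of 5 partner chains and shedding genes tested, 2 were positive, of 12 kinases and STATs 7, of 15 adaptors and PI3K-MAPK genes 8, and of 13 negative regulators 6, with median log2 fold changes of -0.064, 0.033, 0.016 and -0.006 against -0.006 for all genes. The groups did not overlap in 2, 0, 3 and 1 genes of these lists, together with 2 of 20 target genes and lineage factors, where the share over all genes was 12.2%. Before adjustment, limma gave p under 0.05 for Il6st, Mapk3, Bcl2l1, Myc and Cebpe, which is 5 of the 65 genes tested in these 5 lists (7.69%), close to the 6.07% of all genes. The 8 genes without overlap are 12.3% of the 65, likewise close to the share over all genes.

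Mapk3, the ERK1 kinase, stood at 164.2, 186.1 and 160.7 FPKM with CTLA4-Ig and 151.9, 150.4 and 143.7 FPKM with control IgG, a log2 fold change of 0.19 ± 0.07. Gab1, a docking adaptor, stood at 1.10, 1.12 and 1.12 FPKM with CTLA4-Ig and 1.74, 1.35 and 1.52 FPKM with control IgG, a log2 fold change of -0.26 ± 0.12. The groups did not overlap in either gene, and the adjusted p in limma was 0.751 for Mapk3 and 0.848 for Gab1 (SE, n = 3 each). Shc1, an adaptor, had 0.09 ± 0.07. Among the kinases, Lyn, of the Src family, had a log2 fold change of -0.11 ± 0.07, and Jak1, a kinase that cytokine receptors recruit, 0.07 ± 0.05. Tyrobp, which encodes the adaptor DAP12, had 0.11 ± 0.09, and Adam10, a protease that sheds Il6ra, -0.07 ± 0.06. Of the negative regulators, Spred1 and Spry2, inhibitors of the Ras-MAPK cascade, had -0.20 ± 0.11 and -0.26 ± 0.16, and Socs2, an inhibitor of cytokine receptor signalling, 0.32 ± 0.23, or 0.08 ± 0.15 without control IgG library 1 (SE, n = 3 each; limma, adjusted p from 0.848 to 0.904 over the genes of this paragraph other than Mapk3). Several of these small values rest on single libraries. Without control IgG library 1, Spred1 was at -0.10, Tyrobp at 0.04, Lyn at -0.06, Adam10 at -0.04 and Shc1 at 0.14. Spry2 was at -0.16 without CTLA4-Ig library 2 and -0.45 without CTLA4-Ig library 3. Shc1 was at 0.05 without CTLA4-Ig library 2, Lyn at -0.07 without CTLA4-Ig library 3, and Adam10 at -0.04 without CTLA4-Ig library 1 and -0.11 without control IgG library 2. With a pseudocount of 0.1 in place of 1, Gab1 was at -0.42 and Socs2 at 0.58.

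Among target genes and lineage factors, Cebpe and Myc differed most in p. Cebpe, a transcription factor of late neutrophil maturation, stood at 188.6, 228.4 and 180.3 FPKM with CTLA4-Ig and 132.4, 143.1 and 138.9 FPKM with control IgG. Myc, a growth-promoting transcription factor, stood at 23.2, 26.4 and 22.7 FPKM with CTLA4-Ig and 29.5, 29.0 and 27.2 FPKM with control IgG. In both genes the groups did not overlap, with log2 fold changes of 0.52 ± 0.10 for Cebpe and -0.24 ± 0.08 for Myc (SE, n = 3 each; limma, adjusted p = 0.720 for both). Bcl2l1, which encodes the survival protein BCL-XL, stood at 10.2, 13.4 and 12.0 FPKM with CTLA4-Ig and 10.2, 9.02 and 9.18 FPKM with control IgG, a log2 fold change of 0.29 ± 0.11 (SE, n = 3 each; limma, adjusted p = 0.751). Neutrophil markers, which include known targets of Cebpe, were higher in sum with CTLA4-Ig in the same libraries, and their part in these values was not tested.

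**Figure D4:**
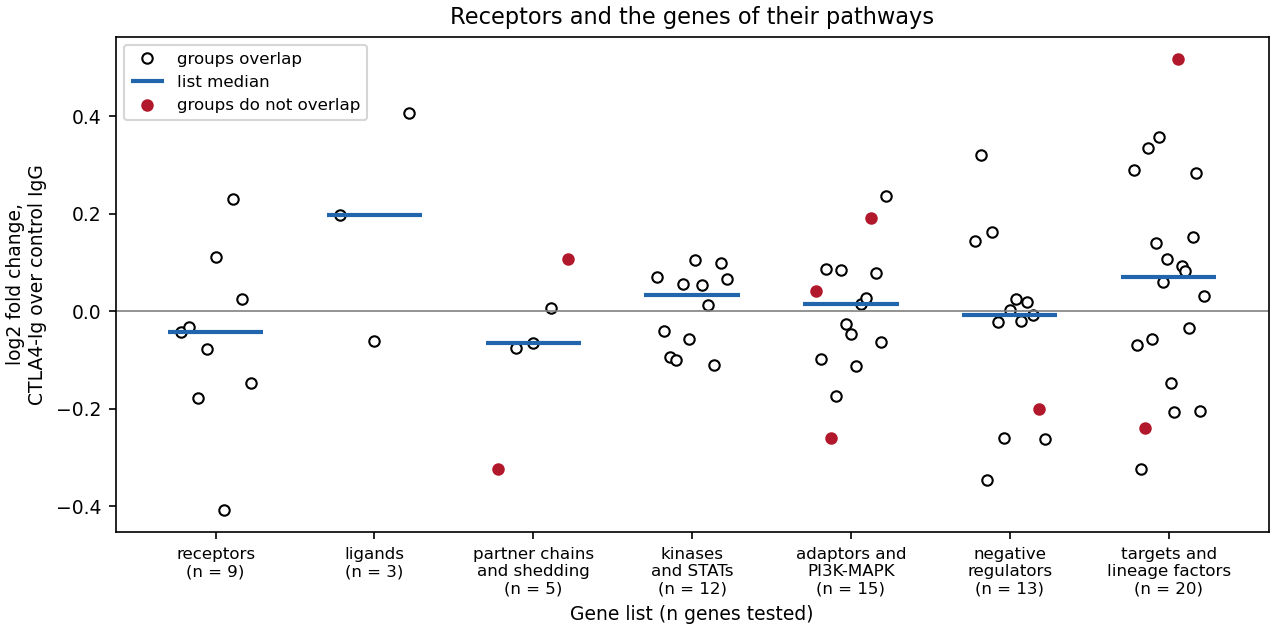
Log2 fold change of CTLA4-Ig over control IgG for each tested gene of the receptors and of 6 lists of their pathways (columns, with the number of genes tested); filled red points are genes whose groups do not overlap, and blue bars are list medians. The medians lie between -0.064 and 0.198, and 8 genes outside the receptors have groups that do not overlap.

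Profiles over the 6 libraries were compared as the mean absolute difference between log2(FPKM + 1) values centred on each gene's own mean. With 6 libraries and 10865 genes, close profiles arise readily, so the nearest genes are a description. Csf2rb lay 0.051 from Csf2rb2, the closest pair of receptors, and was nearest to Sbno2 at 0.038. Csf2rb2 was nearest to Csf2rb and then to Gm16982 at 0.055. How far fragments from identical stretches enter the likeness of Csf2rb and Csf2rb2 was not tested. Csf2ra and Il3ra lay 0.052 apart, and Csf1r, Flt3 and Kit had no receptor closer than 0.166, 0.263 and 0.168. Profiles were not scaled by spread, so genes that vary little lie close by that alone. The standard deviation over the 6 log2 values was 0.107 for Csf2ra and 0.110 for Il3ra, against 0.299 for Csf2rb, 0.308 for Csf2rb2 and 0.544 for Flt3. For Csf3r the nearest genes were Coro1a at 0.003 and Cotl1 at 0.010, both of the actin cytoskeleton of white blood cells. Csf1r was nearest to Pck2 at 0.020 and Phf13 at 0.021, Csf2ra to Hspa2 at 0.022 and Stx6 at 0.023, and Il3ra to Tmem176a at 0.022 and Sgta at 0.025. Flt3 was nearest to Amica1 at 0.056 and Gpx3 at 0.066, Kit to Txndc16 at 0.033 and Nr1d2 at 0.037, and Il6ra to Slc12a9 and Dhps, both at 0.027.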

How the data were processed

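Libraries of sorted cells were stranded (TruSeq mRNA) and RNA came from a miRNeasy extraction, per the labels' protocols. The submitters' processing notes name Cuffnorm 2.2.1, TopHat2 2.0.13, SAMtools 0.1.19, Bowtie2 2.2.3 and build mm10; the annotation, the settings and whether counting used strand were not given in the sources used here. FPKM per gene name were deposited by the authors. Groups and library numbers come from the titles.

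Tests used limma 3.58.1 (R 4.3.3; trend prior, group as the only factor) on log2(FPKM + 1), over genes whose mean reached 1 FPKM, at a Benjamini-Hochberg adjusted p of 0.05. The fit was also run on simulated data that took means and spreads from these data. Errors there were independent between genes and no library stood apart, unlike in these data. Depth was read from low values of genes with a single GENCODE M21 transcript, where values cluster at what 1 fragment is worth. Python 3.11.15 with scipy 1.17.1 and Biopython was used for ratios, sequences and figures. Coordinates and promoters are RefSeq GRCm38.p6, the build of mm10. Genes that RefSeq places over a receptor (microRNA and noncoding genes) have no value of their own in the files. Spi1, Adgre1 and Siglecf were matched through an older symbol, and Ly6g and Trbc2 were not matched.

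The 9 receptors, the gene lists and the tests were chosen with earlier results of these data known. Named genes are all receptors and ligands, the 3 genes of each pathway list with the smallest unadjusted p, the most abundant gene of each marker list and the 2 genes nearest each receptor in profile; Cx3cr1 and the genes in the closing observations were added after their values were seen, and genes withheld for evaluation are not reported here by name. Eosinophil, lymphocyte and stromal marker lists are given in the closing observations. Each library was left out in turn, and further alternatives were a replicate block, array weights, a robust prior, a prior without trend, quantile or median of ratios scaling, a minimum mean of 5 FPKM or none, and pseudocounts of 0.5 and 0.1.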

Additional observations from a re-analysis of the deposited data

How the results depend on the processing

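No receptor was called under any of the 16 alternatives. Over all genes limma called 0 with all libraries and 0 to 6 when 1 library was left out, with 6 without CTLA4-Ig library 3; the cause was not tested. Genes with an unadjusted p under 0.05 numbered 659 with all libraries, 347 without CTLA4-Ig library 2 and 904 with array weights. Of 27 single-gene fold changes, 7 changed sign under some alternative and none passed the threshold. With array weights the log2 fold change was 0.04 for Csf2ra, 0.0039 for Csf2rb and 0.10 for Csf2rb2, and without a change of sign 0.10 for Kit, 0.13 for Socs2, -0.13 for Spred1 and 0.06 for Tyrobp. Leaving out 1 library gave -0.13 to 0.09 for Csf1r, -0.11 to 0.04 for Csf2ra, -0.32 to 0.07 for Csf2rb, -0.21 to 0.18 for Csf2rb2, -0.62 to 0.01 for Flt3, -0.06 to 0.08 for Il3ra and -0.13 to 0.07 for Flt3l. Other changes of scaling, filter and prior turned no direction. The ratio of Csf3r to Csf1r differed by 0.01 to 0.27 and that of Csf2rb2 to Csf2rb by 0.06 to 0.12 when 1 library was left out.

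Library numbers did not pair the libraries: deviations of same-numbered libraries from their group means correlated at -0.154, -0.094 and -0.023, and 0 of 6 libraries matched its own number best. With the replicate block limma called 0 genes and 0 receptors, and the ratios differed by 0.16 (exact permutation p = 0.5) and 0.10 (exact permutation p = 0.25, the smallest 3 pairs can give). With 3 libraries per group, the interval of Flt3 spans both directions widely.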

Other observations

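Control IgG library 1 stood apart in genes of the same pathways, which are given as values and were chosen after they were seen. Socs3, a feedback inhibitor of cytokine receptors, was at 23.5 FPKM in that library and between 2.23 and 5.87 FPKM in the other 5. Pim1, a kinase gene induced by STAT factors, was at 78.9 FPKM there and between 24.4 and 36.8 FPKM elsewhere, Jak3 at 22.5 FPKM against 9.37 to 14.4 FPKM, and Cblb, a ubiquitin ligase, at 14.3 FPKM against 6.75 to 8.23 FPKM. Socs2 was at 0.506 FPKM in that library against 1.23 to 1.88 FPKM, and Ccnd1, the cyclin D1 gene, at 3.80 FPKM against 8.30 to 11.9 FPKM. Over all genes tested, 3.56% lay more than 1.5 times outside the range of the other 5 libraries in control IgG library 1, where the other libraries had 0.387 to 0.69%.

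Eosinophil markers (7 of 7 in the files, led by Prg2) summed to 700.2, 551.2 and 1214.7 FPKM with CTLA4-Ig and 535.1, 705.7 and 570.9 FPKM with control IgG. Lymphocyte markers (11 of 12 in the files, led by Nkg7) summed to 95.9, 117.9 and 136.1 FPKM with CTLA4-Ig and 109.3, 123.1 and 118.4 FPKM with control IgG. Stromal and bone markers (10 of 10 in the files, with Sp7 and Bglap at 0 in some libraries, led by Pecam1) summed to 39.7, 39.0 and 44.0 FPKM with CTLA4-Ig and 26.7, 40.5 and 48.9 FPKM with control IgG. The groups overlapped in all 3 sums. Log2 fold changes were positive for all 7 eosinophil markers (median 0.511), and 0 of them had a p under 0.05 in limma before adjustment or groups that did not overlap. Over all genes tested these shares were 6.07% and 12.2%. Single libraries weigh on the eosinophil direction. Control IgG library 1 was lowest for 5 of the 7, against 24.5% of all genes, and CTLA4-Ig library 3 had the highest sum. Prg2 stood at 787.3 FPKM in CTLA4-Ig library 3 and between 326.8 and 438.2 FPKM in the others. Of the lymphocyte markers tested 2 of 8 were positive, and of the stromal and bone markers 4 of 5, with medians of -0.082 and 0.117. All 5 stromal and bone markers tested were lowest in control IgG library 1.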
